A study of Mus musculus with 4 samples.

Results

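The matrix metalloproteinases (MMPs) and their tissue inhibitors (TIMPs) were followed through mRNA-seq libraries of mouse primary vascular smooth muscle cells (VSMCs). The group was taken by gene symbol and holds 10 genes, *Mmp2*, *Mmp3*, *Mmp9*, *Mmp10*, *Mmp14*, *Mmp19*, *Mmp23*, *Timp1*, *Timp2* and *Timp3*, of the 48587 genes in the deposited count table. The VSMCs came from the descending aorta of adult C57BL/6J mice, digested with enzymes to strip the adventitia and scraped to remove the endothelium, and each culture then received a lentivirus coding for a hairpin. In the shMettl14 libraries the hairpin was directed against *Mettl14* (a single hairpin sequence), a subunit of the complex that writes N6-methyladenosine (m6A) on RNA, and in the shCTR libraries the lentivirus carried a nontargeting hairpin against a plant microRNA sequence. Each group had 2 libraries, which carry the letters A and B. Nothing in the labels or methods says whether a letter marks a shared isolation of cells, or whether the libraries of a group came from separate cultures, so the p-values given here measure only the spread between these libraries.

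MMPs are zinc-dependent proteases that are made as inactive precursors and cut collagens, gelatin, proteoglycans and other matrix proteins once their propeptide has been removed. TIMPs bind the active site of MMPs and block them. In the vessel wall, MMP activity loosens the basement membrane around VSMCs and is known for its part in their migration and proliferation during neointima formation. TIMP2 has a double role, since it inhibits MMPs but also holds the MMP2 precursor at the cell surface, where MMP14 can activate it.

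The feature that makes these genes a family can be read in their transcripts. The 30 bases below encode the start of the zinc-binding motif of the catalytic domain in the longest annotated coding sequence of each MMP member (GENCODE M21, GRCm38). Capitals mark the codons of the first 2 zinc-binding histidines and of the catalytic glutamate between them.
*Mmp2*: CATGAGttcggcCATgccatggggctggaa
*Mmp9*: CACGAGttcggcCATgcactgggcttagat
*Mmp3*: CATGAActtggcCACtccctgggactctac
*Mmp10*: CATGAActtggcCACtccctgggtctcttt
*Mmp14*: CATGAGttggggCATgccctaggcctggaa
*Mmp19*: CATGAAgtgggcCATgccctaggacttggg
*Mmp23*: CATGAGattggcCATgcactgggcctgatg
In the TIMPs the inhibitory contact is made by the amino terminus of the mature protein, and capitals mark the codons of its first 2 cysteines.
*Timp1*: TGTagcTGTgccccaccccacccacagaca
*Timp2*: TGCagcTGCtccccggtgcacccgcaacag
*Timp3*: TGCacaTGCtctcccagccatccccaggat
The stretch lies at codon 403 of *Mmp2* and codon 401 of *Mmp9*, against codon 220 of *Mmp3* and codon 218 of *Mmp10*. The coding sequences of *Mmp3* and *Mmp10* were identical in 78.8% of 1442 aligned positions, with a shared run of 104 bases. The next closest pairs among the members were *Timp2* and *Timp3* (57.9%) and *Mmp2* and *Mmp9* (55.1%).

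Totals ranged from 114343653 to 124815868 counts per library, and expression is given as CPM, counts scaled to a common library size after correction by edgeR's TMM method. By the limit set here, a gene with 0 counts could still have a level of up to 3 counts, at most 0.0278 CPM. The exact Poisson 95% intervals given for some genes below are wider, and end at 3.69 counts for a count of 0. Both cover counting error only. *Mettl14* had 2050 and 2154 counts in shCTR A and B and 546 and 568 in shMettl14 A and B, so the targeted mRNA was lower in both shMettl14 libraries. The 5 smooth muscle markers examined (*Acta2*, *Tagln*, *Cnn1*, *Myh11*, *Smtn*) summed to 6600 and 5654 CPM with shCTR and to 4292 and 4678 CPM with shMettl14. Most of each sum was *Acta2* and *Tagln*, at 3547 and 2333 CPM in shCTR A. Both genes were lower in both shMettl14 libraries, while *Cnn1*, *Myh11* and *Smtn* overlapped between the groups. The 5 endothelial markers (*Pecam1*, *Cdh5*, *Tek*, *Vwf*, *Kdr*) summed to between 1012 and 1678 CPM, with none at 0 in any library, so the libraries labelled VSMC also held endothelial transcripts although the endothelium had been scraped. Nearly all of the endothelial sum was *Pecam1* and *Cdh5*. In bulk RNA, fewer cells of a type and less RNA per cell cannot be told apart. The 5 leukocyte markers summed to between 6.06 and 9.03 CPM, and *Adgre1* of macrophages had at most 4 counts. The fibroblast markers *Dpt*, *Lum*, *Pi16* and *Cd34* summed to between 416 and 507 CPM, nearly all of it *Cd34*, which endothelial cells also express.

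All 10 members had counts, and 8 had enough to be read. *Mmp9* and *Mmp10* had means of 9.75 and 9.50 counts per library, below the minimum of 10 set for reading a gene. No difference between shMettl14 and shCTR was called for any member, with edgeR's quasi-likelihood test and Benjamini-Hochberg adjustment over 18916 genes (adjusted p under 0.05), and the share called among all genes tested was 0%. At an unadjusted p under 0.05 there were 0 of 10 members, against 1.67% of all genes tested, and DESeq2's Wald test called 0 members too. Of the 8 readable members, 6 had a negative and 2 a positive log2 fold change, with a median of −0.18, beside 0.0094 for all genes tested. Their standard errors lay between 0.19 and 0.55, and in this fit *Mmp3* was the one readable member whose log2 fold change exceeded its standard error. With a term for the letter in the fit, those of *Timp1* and *Timp2* did so too. Within letters, 3 of the 8 were lower with shMettl14 in both A and B (27.6% of all genes tested), 1 was higher in both (30.0%) and 4 had opposite signs. Both shMettl14 libraries lay below both shCTR libraries for 2 of the 8 (13.3% of all genes tested) and above them for 0 (14.7%). The median over all 10 members changed sign with the library left out, to 0.35 without shCTR A and 0.0077 without shMettl14 B. Such a fit sets 1 letter of a group against both letters of the other, so it mixes letter and hairpin differences. The same holds for every fit with a library left out below. With 2 libraries a group and these errors, the absence of calls does not show that the mRNAs were equal. The tests were also tried on simulated data in which the letters differed as in these libraries. There the fit used here missed every large change that had been put in, so its lack of calls says little about whether these genes changed. DESeq2 and edgeR with a term for the letter recovered more of those changes than they missed, and each called 0 members here. Their lack of calls does not show equal levels either.

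**Figure D1:**
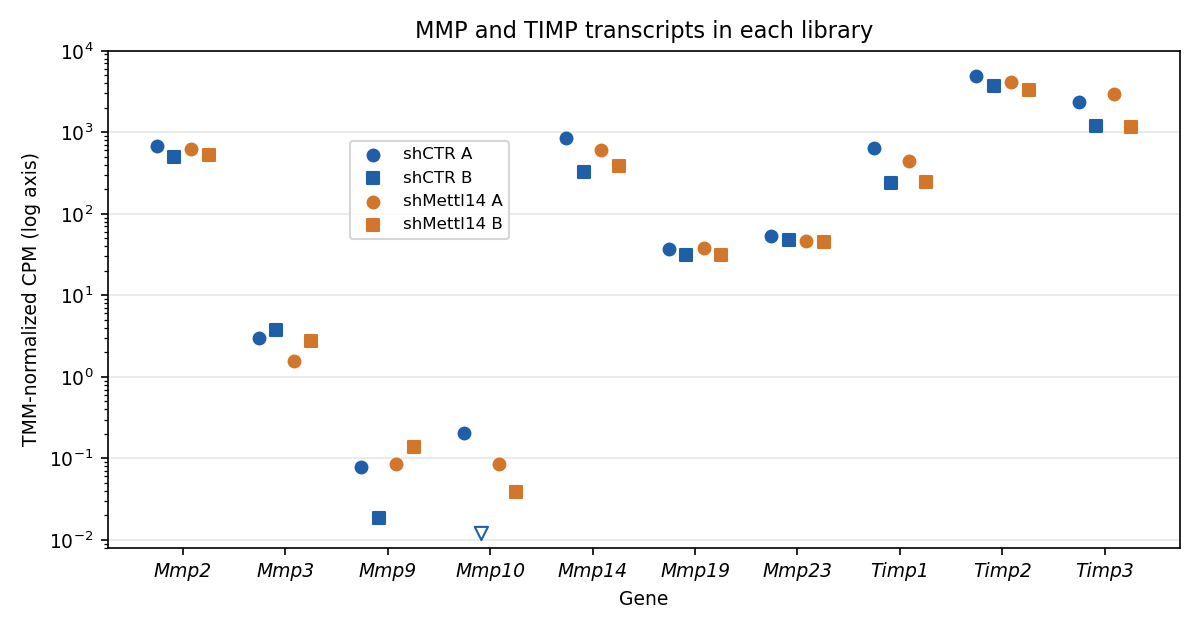
TMM-normalized CPM (log axis) of the 10 members in each of the 4 libraries, with circles for letter A and squares for letter B; the open triangle marks 0 counts of Mmp10 in shCTR B and is not a level. The TIMPs, Mmp2 and Mmp14 lie above 200 CPM in every library, and Mmp9 and Mmp10 below 0.3 CPM.

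*Mmp2* encodes gelatinase A, an MMP that VSMCs are known to make constitutively (ENSMUSG00000031740, chromosome 8 of GRCm38 from 92827291 to 92853420). Its level was 674 CPM in shCTR A, 495 in shCTR B, 617 in shMettl14 A and 519 in shMettl14 B. Both shMettl14 values fell between the shCTR values, so the groups overlapped completely. The means were 584 ± 127 CPM with shCTR and 568 ± 69.0 with shMettl14 (SD, n = 2), a log2 fold change of shMettl14 over shCTR of −0.04 with a standard error of 0.24. The log2 ratio of shMettl14 over shCTR was −0.13 in letter A and 0.07 in letter B. The fitted value turned to 0.20 without shCTR A and to 0.079 without shMettl14 B.

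*Mmp9*, the other gelatinase, which is known as an inducible enzyme of macrophages, neutrophils and stimulated VSMCs (ENSMUSG00000017737, chromosome 2 from 164940780 to 164955850), had 9 and 2 counts in shCTR A and B and 10 and 18 counts in shMettl14 A and B. Both shMettl14 counts were above both shCTR counts, by 1 count in the closest pair. Exact Poisson 95% intervals, which cover counting error only, ran from 4.12 to 17.1 counts in shCTR A and from 4.80 to 18.4 in shMettl14 A, and from 0.242 to 7.22 in shCTR B and from 10.7 to 28.4 in shMettl14 B. The intervals thus overlapped for letter A and did not for letter B. *Mmp9* passed edgeR's filter on low counts only through its shMettl14 libraries. The fitted log2 difference was 1.17 with a standard error of 1.08 (edgeR unadjusted p = 0.33), and at these counts no direction is read from the gene. The mRNA of the gelatinases was therefore almost wholly *Mmp2* in these cultures.

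*Mmp3* encodes stromelysin 1, which cuts proteoglycans, laminin and fibronectin and activates other MMP precursors (ENSMUSG00000043613, chromosome 9 from 7445822 to 7455975). It had 337 and 406 counts in shCTR A and B and 184 and 354 in shMettl14 A and B. After normalization these were 2.97, 3.76, 1.55 and 2.72 CPM in the same order. Both shMettl14 libraries were below both shCTR libraries. The means were 3.36 ± 0.560 and 2.14 ± 0.829 CPM (SD, n = 2), so that 63.5% of the shCTR level was measured with shMettl14. edgeR fitted a log2 fold change of −0.65 with a standard error of 0.43 (unadjusted p = 0.19, not called after adjustment). With a term for the letter, edgeR gave −0.70 with a standard error of 0.28 (unadjusted p = 0.029, adjusted p = 0.44). In that fit 10.3% of all genes tested had an unadjusted p under 0.05. Within letter A the log2 ratio was −0.93, and within letter B it was −0.46. The value of −0.65 was the largest log2 fold change in size among the 8 readable members. Its sign held with each library left out, from −1.12 without shMettl14 B to −0.31 without shMettl14 A. The summed smooth muscle markers given above were also lower in both shMettl14 libraries; their part in this result was not tested.

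*Mmp10*, stromelysin 2 (ENSMUSG00000047562, chromosome 9 from 7502352 to 7510240), had 23 and 0 counts in shCTR A and B and 10 and 5 in shMettl14 A and B. The shCTR libraries thus hold both the highest and the lowest count. The 0 of shCTR B allows up to 0.0278 CPM by the limit of 3 counts, and its exact Poisson 95% interval reaches 3.69 counts. The value can be neither called higher nor lower. *Mmp10* and *Mmp3* also share reads in principle, since 5 of the 1623 stretches of 100 bases in the *Mmp10* transcript occur in *Mmp3*, 0.308% of them. For each of the other 8 members 0 such stretches occurred in another gene's transcripts.

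*Mmp3* and *Mmp10* lie in a run of 10 MMP genes on chromosome 9, from 7272514 to 7699585 (GRCm38). A shared feature of these genes is the AP-1 motif, the binding site of FOS and JUN proteins, through which stromelysin and collagenase genes are known to be induced. The stretches below come from the RefSeq promoter sequences (GRCm38.p6), are written along the strand of the gene, and have the motif in capitals. Those shown are of the members *Mmp3* and *Mmp10* and of *Mmp13*, in which the motif starts at positions −46, −63 and −35 from the start site. In the run it also starts at −44 in *Mmp12*, −63 in *Mmp7*, −73 in *Mmp1a* and −93 in *Mmp1b*.
*Mmp3*, plus strand, chr9:7445765-7445793: ggaagcaattaTGAGTCAgttttcgggtg
*Mmp10*, plus strand, chr9:7502268-7502296: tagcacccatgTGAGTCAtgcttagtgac
*Mmp13*, plus strand, chr9:7272468-7272496: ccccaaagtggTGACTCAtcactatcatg
The motif searched was TGACTCA, which reads TGAGTCA on the other strand, in windows from 250 bases before to 50 bases after a start site. It occurred in windows of 7 of the 10 genes of the run and in 0 of the 12 other MMP and TIMP genes whose promoter sequence was matched. Of all 32851 windows, 5.20% held it. Of the 7 members with a matched promoter, *Mmp3* and *Mmp10* held it. Genes of the run were all low in these cells. *Mmp13* (collagenase 3) had 95 and 346 counts in shCTR A and B and 70 and 114 in shMettl14 A and B, *Mmp27* had between 93 and 164 counts per library, and *Mmp1a*, *Mmp1b*, *Mmp8* and *Mmp12* had at most 3. *Mmp7* and *Mmp20* were at 0 counts in all 4 libraries.

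*Mmp14* encodes the membrane-type enzyme MT1-MMP, which cuts fibrillar collagen at the cell surface and activates the MMP2 precursor (ENSMUSG00000000957, chromosome 14 from 54431612 to 54445364). It was measured at 854 CPM in shCTR A, 324 in shCTR B, 602 in shMettl14 A and 390 in shMettl14 B. Again both shMettl14 libraries lay between the shCTR libraries. The means were 589 ± 375 and 496 ± 150 CPM (SD, n = 2), and the fitted log2 difference was −0.25 with a standard error of 0.51. The sign differed between letters, with a log2 ratio of −0.51 in A and 0.26 in B. Without shCTR A the fitted value was 0.61 and without shMettl14 B it was 0.030.

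*Mmp23* encodes an MMP that is held in the membrane by an amino-terminal anchor and lacks the usual cysteine switch (ENSMUSG00000029061, minus strand of chromosome 4 from 155650655 to 155653384). Its CPM were 53.1 and 47.2 in shCTR A and B and 46.2 and 44.8 in shMettl14 A and B. The groups did not overlap, and the difference was small. edgeR fitted −0.14 on the log2 scale, with a standard error of 0.19 and an unadjusted p of 0.50, and the sign held with each library left out (from −0.22 without shCTR B to −0.057 without shCTR A).

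*Mmp19* encodes a secreted enzyme that cuts basement membrane proteins (ENSMUSG00000025355, chromosome 10 from 128790910 to 128800824). Its CPM were 36.6 and 31.2 in shCTR A and B and 37.6 and 31.3 in shMettl14 A and B. The libraries of one letter thus nearly coincided, and the log2 ratios were 0.04 in A and 0.0041 in B. The fitted log2 difference of 0.02 had a standard error of 0.22, and turned to −0.087 without shCTR B and −0.12 without shMettl14 A. Genes on the other strand overlap 28.3% of its exon bases, among them *Tmem198b*, which had between 1849 and 3063 counts. The library kit keeps the strand, but whether the counting used it is not given in the sources used here.

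*Timp2* was the most abundant member (ENSMUSG00000017466, minus strand of chromosome 11 from 118301069 to 118355740). It had 4938 CPM in shCTR A, 3696 in shCTR B, 4099 in shMettl14 A and 3281 in shMettl14 B. The shMettl14 library was lower within each letter, by 0.27 on the log2 scale in A and 0.17 in B, but the groups overlapped. The means were 4317 ± 878 and 3690 ± 578 CPM (SD, n = 2). edgeR fitted a log2 difference of −0.23 with a standard error of 0.24 and an unadjusted p of 0.39, with a range from −0.42 to −0.0052 when 1 library was left out.

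*Timp1*, an inducible inhibitor of most soluble MMPs, lies within *Syn1*, a gene of the other strand (ENSMUSG00000001131, chromosome X from 20870166 to 20874735). It had 648 CPM in shCTR A, 240 in shCTR B, 439 in shMettl14 A and 242 in shMettl14 B. The libraries of letter B were alike and those of letter A were not, with log2 ratios of 0.01 and −0.56. The fitted log2 difference of −0.38 had a standard error of 0.55 and turned to 0.50 without shCTR A. That fit sets the lone letter B control against both letters of shMettl14, so it mixes the letter and hairpin differences. With a term for the letter and all libraries the value was −0.27 (standard error 0.18). *Syn1* had at most 386 counts per library and shares no annotated exon bases with *Timp1*.

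*Timp3* encodes the inhibitor that stays bound to the matrix and also inhibits ADAM and ADAMTS proteases (ENSMUSG00000020044, chromosome 10 from 86300372 to 86349506). Its fitted log2 difference was positive, unlike those of *Timp1* and *Timp2*. Its CPM were 2330 in shCTR A, 1206 in shCTR B, 2982 in shMettl14 A and 1158 in shMettl14 B. The highest and the lowest level were thus both in shMettl14 libraries. The means were 1768 ± 794 and 2070 ± 1290 CPM (SD, n = 2), and the fitted log2 difference was 0.23 with a standard error of 0.55. Letter A gave a log2 ratio of 0.36 and letter B one of −0.06. It turned to −0.17 without shCTR B and to −0.61 without shMettl14 A. *Syn3* overlaps 21.3% of the *Timp3* exon bases on the other strand and had at most 177 counts per library.

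**Figure D2:**
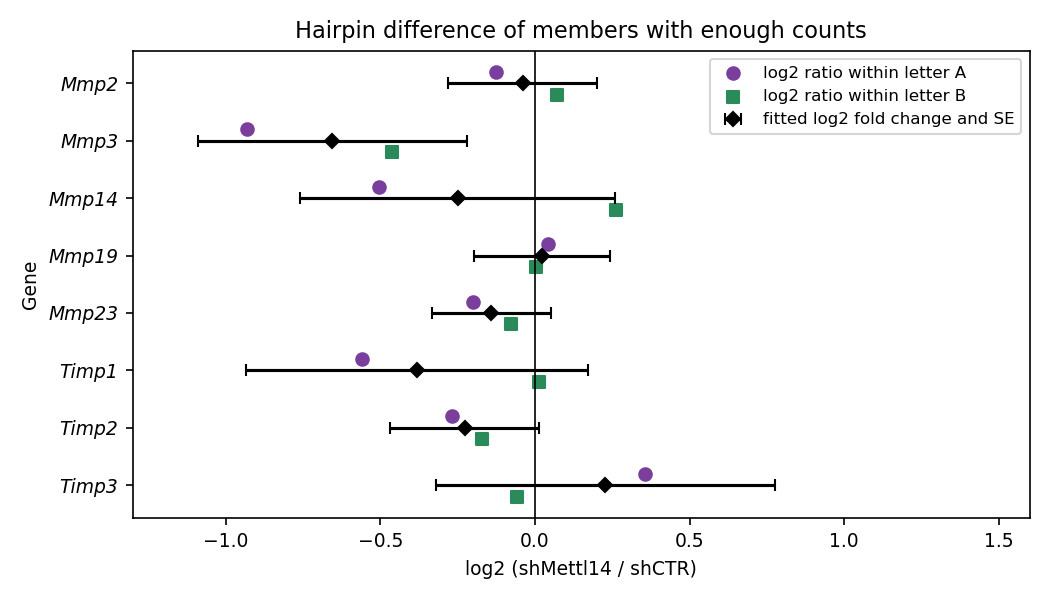
log2 ratio of shMettl14 over shCTR for the 8 readable members; diamonds with bars are the fitted log2 fold change and its standard error, circles and squares the ratios within letters A and B. The bars of 7 genes include 0, and that of Mmp3 (−0.65 with a standard error of 0.43) does not.

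Levels of different genes were compared as CPM per kb of merged exon length. By the mean over the 4 libraries the order was *Timp2* (1028), *Timp1* (442), *Timp3* (236), *Mmp2* (171), *Mmp14* (91.0), *Mmp23* (20.4), *Mmp19* (9.67), *Mmp3* (1.53), *Mmp10* (0.0472) and *Mmp9* (0.0226). The ranges over libraries of *Timp1* and *Timp3*, of *Timp3* and *Mmp2*, and of *Mmp10* and *Mmp9* overlapped, and those of the other neighbours did not. With the length of the longest transcript in place of the merged exons the order was the same, but the ranges of *Mmp2* and *Mmp14* then overlapped and those of *Timp3* and *Mmp2* did not. *Mmp2* and *Mmp14* together made up between 77.7% and 84.8% of the summed MMP level per kb in each library. Summed over all TIMPs and all MMPs listed, the TIMP level per kb was 5.64 and 5.28 times the MMP level in shCTR A and B. In shMettl14 A and B it was 5.56 and 4.49 times. With the length of the longest transcript these ratios were lower, 4.52 and 4.47 with shCTR and 4.77 and 3.77 with shMettl14. TIMP transcripts thus outnumbered MMP transcripts in every library, and the ranges of the groups overlapped. The ratio of *Timp2* to *Mmp14*, the pair that handles the MMP2 precursor, was 8.84 and 17.4 with shCTR and 10.4 and 12.9 with shMettl14 in A and B, so it also lay between the shCTR values.

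**Figure D3:**
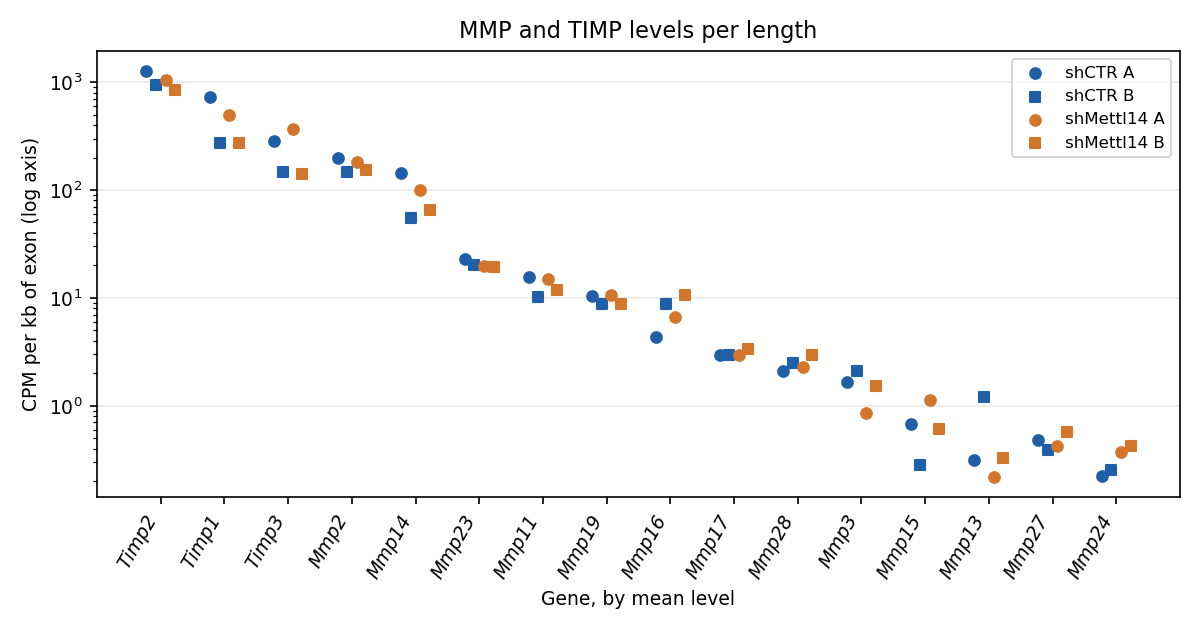
CPM per kb of merged exon length (log axis) for the MMP and TIMP genes with a mean of at least 0.1, ordered by that mean, with 1 point per library. Timp2 is highest (842 to 1267) and Mmp2 and Mmp14 lead the MMPs.

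The mean log2 difference between letters was larger in size than the mean log2 difference between hairpins for 6 of the 8 readable members. It was so for 64.2% of all genes tested too, a trait of these libraries that is not particular to the members. Letter B was below letter A under both hairpins for 7 of the 8 (36.6% of all genes tested) and above it for 1, *Mmp3* (35.5%). The largest differences were those of *Timp3*, with a log2 ratio of B over A of −0.95 with shCTR and −1.36 with shMettl14, of *Timp1* (−1.43 and −0.86) and of *Mmp14* (−1.40 and −0.63). *Mmp3* went the other way, by 0.34 and 0.81. The smooth muscle markers did not differ in 1 direction between letters. *Myh11*, the smooth muscle myosin heavy chain, was 338 and 233 CPM in A and 101 and 75.0 CPM in B (shCTR, then shMettl14). *Cnn1* (log2 ratios of B over A of −0.81 and −0.27) and *Acta2* (−0.34 and −0.07) were also lower in B. *Tagln* (0.07 and 0.48) and *Smtn* (0.23 and 0.29) were higher in B. The summed endothelial markers were 1012 and 1080 CPM in A and 1678 and 1197 CPM in B. The part of these in the letter differences was not tested.

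**Figure D4:**
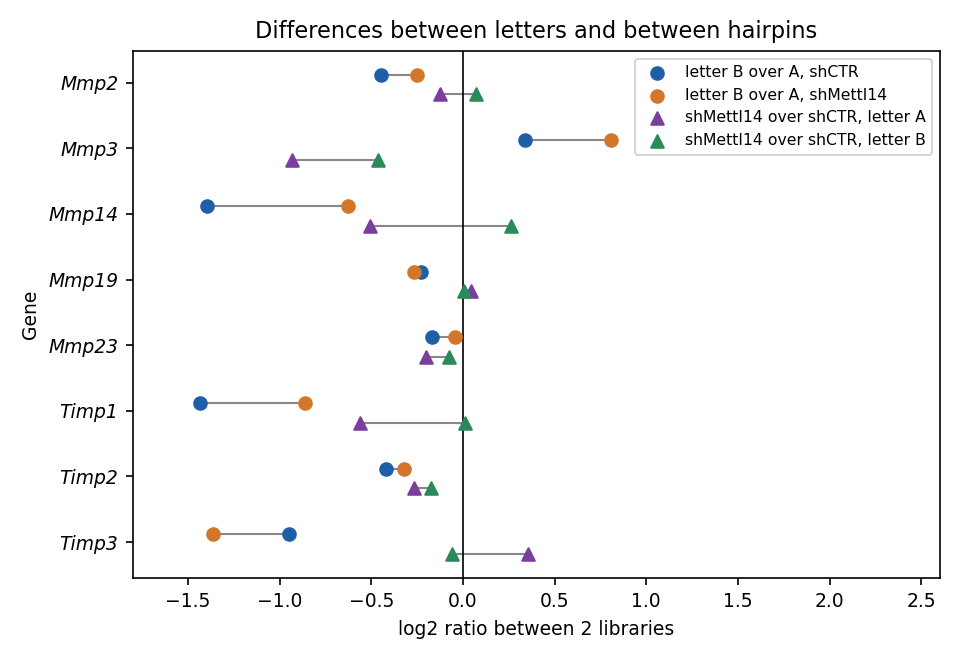
For each readable member, the log2 ratio of letter B over letter A with each hairpin (circles) and of shMettl14 over shCTR within each letter (triangles). The circles of 7 genes lie left of 0, and those of Mmp3 lie right of it.

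Among the other 16 MMP genes and *Timp4*, 10 of the 17 passed the filter on low counts and 2 had 0 counts in every library. Neither edgeR (0% of all genes tested) nor DESeq2 called any of them after adjustment, and in edgeR 1 of the 10 had an unadjusted p under 0.05, *Timp4*, where 1.67% of all genes tested did. *Mmp25* passed the filter with a mean under 10 counts. Of the 9 others, which can be read by the minimum used for the members, 8 had a positive and 1 a negative log2 fold change, with a median of 0.20. *Timp4*, a TIMP of heart and vessels, had 2 and 9 counts in shCTR A and B and 29 and 54 in shMettl14 A and B. These shCTR counts lie under the filter's minimum of 10, so *Timp4* passed only through the shMettl14 libraries, where it was high. Its p-value and its place among the 8 positive values are therefore no support for a difference. It was not tested when 10 counts were required in every library. Both shMettl14 libraries were above both shCTR libraries, at counts where 2 has an exact Poisson 95% interval from 0.242 to 7.22. edgeR fitted 2.69 on the log2 scale with a standard error of 0.97 (unadjusted p = 0.040, not called after adjustment), and the log2 ratio was 2.92 in A and 2.11 in B. With 1 library left out the fitted value ran from 1.97 without shCTR A to 4.15 without shCTR B, and its unadjusted p ran from 0.011 without shCTR B to 0.19 without shMettl14 B. At its mean of 0.330 CPM with shMettl14 it remained far below *Timp1*, *Timp2* and *Timp3*.

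*Mmp15*, *Mmp16* and *Mmp24* had the largest positive fitted values among these genes after *Timp4*. *Mmp24* had 120 and 127 counts with shCTR and 206 and 256 with shMettl14 in A and B, without overlap (log2 fold change 0.73, standard error 0.38). *Mmp15* had 3.69 and 1.53 CPM with shCTR and 6.04 and 3.27 CPM with shMettl14, where the groups overlapped (0.83, standard error 0.58). Its fitted value was 1.603 without shCTR A, 0.33 without shCTR B and 0.32 without shMettl14 A. *Mmp16* had 37.3 and 75.4 CPM with shCTR and 57.3 and 91.5 CPM with shMettl14, a fitted log2 difference of 0.40 with a standard error of 0.42 that was −0.022 without shCTR A. *Mmp13*, the one gene with a negative value, had 0.836 and 3.20 CPM with shCTR and 0.589 and 0.876 CPM with shMettl14 (−1.46, standard error 0.74), and the fitted value was −0.19 without shCTR B, which holds the one high level. *Mmp11*, *Mmp17*, *Mmp27* and *Mmp28* had log2 fold changes between 0.05 and 0.20, each smaller than its standard error, and each was negative in at least 1 fit with a library left out. *Mmp21* and *Mmp25* averaged under 10 counts per library and were too low to read. *Mmp21* had 0 and 5 counts with shCTR and 9 and 14 with shMettl14, and *Mmp25* had 14 and 0 with shCTR and 2 and 14 with shMettl14.

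Of 8 genes that activate or restrain MMPs, 7 were tested and none was called. The one with an unadjusted p under 0.05 in edgeR (1.67% of all genes tested) was *Plat*, the tissue plasminogen activator. *Plat* had 39.0 and 44.8 CPM in shCTR A and B and 55.6 and 69.8 in shMettl14 A and B, without overlap. edgeR fitted 0.58 on the log2 scale with a standard error of 0.22 (unadjusted p = 0.046, not called after adjustment), and the log2 ratio was 0.51 in A and 0.64 in B. With 1 library left out the fitted value ran from 0.41 to 0.74. DESeq2's Wald test on all 4 libraries gave *Plat* an unadjusted p of 0.065, so the p under 0.05 depended on the test. *Plau*, the urokinase gene, had a fitted log2 difference of 0.26 (standard error 0.23) and its receptor *Plaur* one of −0.26 (standard error 0.26). *Furin*, whose protease removes the propeptide of membrane-type MMPs, gave 0.10 (standard error 0.30), the MMP inducer *Bsg* −0.13 (standard error 0.23), the membrane-anchored inhibitor *Reck* 0.04 (standard error 0.19) and the clearance receptor *Lrp1* −0.0071 (standard error 0.29). With 1 library left out, *Furin* ran from −0.18 without shMettl14 A to 0.41 without shCTR A and *Bsg* from −0.32 without shCTR B to 0.084 without shCTR A. *Reck* turned to −0.055 without shCTR A, and *Lrp1* ran from −0.42 without shMettl14 A to 0.31 without shMettl14 B. *Plau* came to 0.046 without shMettl14 B, and *Plaur* came to 0.00050 without shCTR A. *Plg*, the plasminogen gene of liver, had 53 counts in shCTR A and 0 in the other libraries. DESeq2, run without edgeR's filter, gave it an unadjusted p of 0.010 (Wald test), which rests on shCTR A alone and was not called after adjustment.

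**Figure D5:**
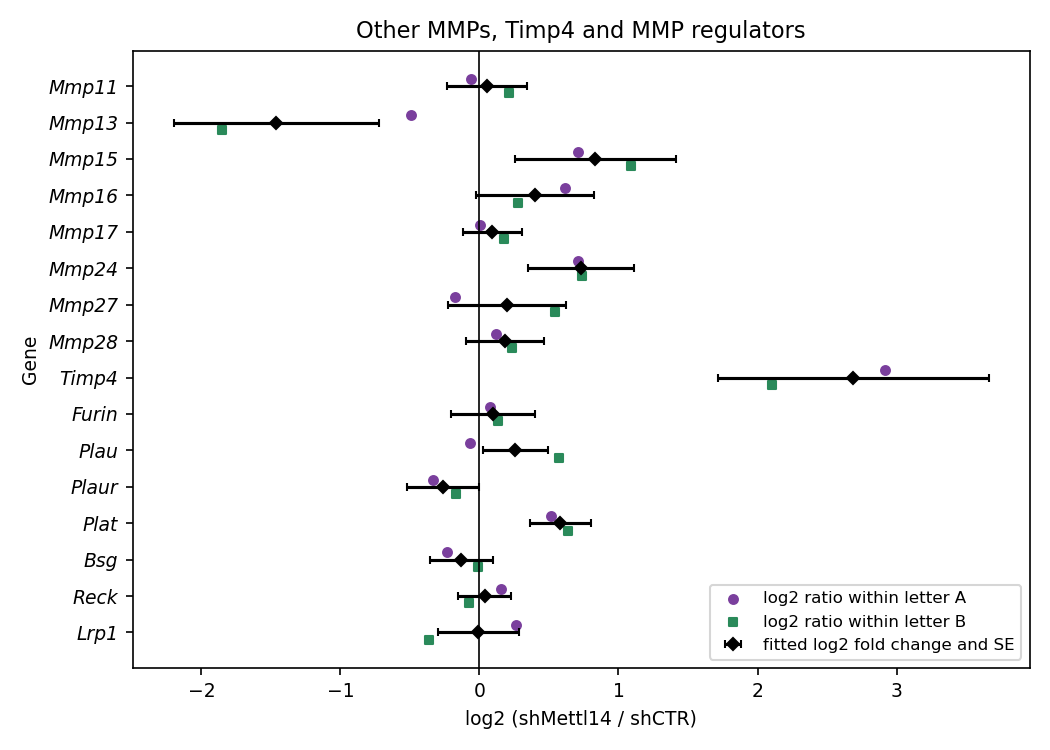
log2 ratio of shMettl14 over shCTR for the other MMP genes, Timp4 and the regulators that passed the filter on low counts with a mean of at least 10 counts (*Plg*, not tested, is not drawn), shown as diamonds with standard errors and as the ratios within letters A (circles) and B (squares). Timp4 has the highest fitted value (2.69) and Mmp13 has the lowest fitted value (−1.46).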

How the data were processed

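Poly-A–enriched, strand-specific mRNA-seq libraries were sequenced on both ends. Alignment to mm10 (GRCm38) was done by the authors with STAR, and featureCounts gave the raw counts per gene that were deposited. Tool versions, the strand setting and the treatment of multiply mapped reads are not given in the sources used here.

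Groups were compared with edgeR 4.0.16 in R 4.3.3 (TMM factors, filterByExpr, robust quasi-likelihood fit without a block, Benjamini-Hochberg adjustment over 18916 genes). The standard error was taken as the size of the fitted log2 difference over the square root of its F statistic. Within-letter and between-letter log2 ratios used a prior count of 2. Lengths, overlaps and coding sequences came from GENCODE M21, a later annotation of the same build than the Ensembl release the authors counted with, so gene models may differ, and coding sequences were aligned with Biopython 1.88. Alternatives were DESeq2 1.42.0, RLE and upper-quartile factors, 2 other filters, a replicate block, each library left out, a prior count of 0.5 and transcript length. The tests were tested on simulated data. With letters alike, all recovered most of the large changes put in. With letters that differed as in these libraries, edgeR without the block recovered none of them, while DESeq2 and edgeR with the block recovered more than they missed.

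All members are named, with a mean of 10 counts as the minimum for reading one, and so are the other family genes and regulators that passed the filter. Members and lists were chosen with earlier results of these data known.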

Additional observations from a re-analysis of the deposited data

How the results depend on the processing

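Of the 58 log2 fold changes of members recomputed with all libraries, 57 kept their direction and stayed uncalled, and 1 turned, that of *Mmp10*, to 0.21 with the replicate block. With 1 library left out, 10 of 40 changed sign, in 6 genes; the ranges were −0.25 to 0.20 for *Mmp2*, −1.71 to 5.88 for *Mmp10*, −0.79 to 0.61 for *Mmp14*, −0.12 to 0.15 for *Mmp19*, −0.93 to 0.50 for *Timp1* and −0.61 to 0.78 for *Timp3*, and −0.35 to 0.35 for the median over the members. In these fits the lone library was assumed to vary like the other group. Its single letter was set against both letters of that group, so sign changes can follow from the letter difference alone. No setting called a member, another family gene or a regulator at an adjusted p under 0.05.

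Over all genes, 5 were called with DESeq2 and 9 with the replicate block, a term for the letter, against 0 in edgeR without it (315 at an unadjusted p under 0.05). With the block 1 of 10 members had an unadjusted p under 0.05, *Mmp3* (log2 fold change −0.70, edgeR adjusted p = 0.44), when 10.3% of all 18916 genes did. So had 5 of 10 other family genes tested (*Mmp13*, *Mmp15*, *Mmp16*, *Mmp24*, *Timp4*) and 1 of 7 regulators (*Plat*). Of these, *Timp4* passed the filter only through shMettl14. With the block the log2 fold changes of *Timp1* (−0.27, standard error 0.18) and *Timp2* (−0.22, standard error 0.16) also exceeded their standard errors. Deviations of libraries of one letter from their group mean had a correlation of 0.578 across genes. This is 1 value, since with 2 libraries a group letters A and B must give the same correlation. The labels do not say what a letter marks. A prior count of 0.5 or the longest transcript moved 3 of 30 untested values by more than the spread between replicates or letters, the levels per length of *Mmp14*, *Mmp23* and *Timp3*.

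Depth limits *Mmp9*, *Mmp10* and *Timp4*, while for the abundant members the spread between 2 libraries sets the limit. An exact permutation test was not used, since 2 libraries against 2 leave too few arrangements for a small p.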
